A study of Drosophila montana with 9 samples.

Results

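The genes *couch potato* (*cpo*), *insulin receptor* (*InR*) and *Pi3K92E* (*Dp110*) were placed as diapause candidates on a microarray of the malt fly *Drosophila montana*, and their probes are described here. All experimental probes whose names carry one of these genes were taken, which gave 4 of the 208 distinct probes and 3 of the 108 genes on the array: 2 probes for *cpo*, 1 for *InR* and 1 for *Pi3K92E*. The 9 one-colour arrays (3 per group) carried whole-body RNA of 13 females each from the isofemale line O3F66, so that all groups come from 1 line. Diapausing females lived for 14 days in 16 h of light and 8 h of darkness per day at 16°C. Reproducing females lived for 14 days in constant light (24 h) at the same temperature, and young females were taken within 1 day of emergence from cultures in constant light at 19°C. The sample labels give the groups as abbreviations, and the groups were read from these. Between diapausing and reproducing females, day length and ovarian state cannot be told apart, and neither can age and temperature where young females are involved. Diapausing and young females differ in day length as well. Nothing in the labels says whether the 3 samples of a group came from separate cultures, so the p-values measure the spread between these samples.

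Adult reproductive diapause is a hormonally controlled arrest in which the ovaries of a female stop before yolk is laid down, and short days bring it on in many northern flies. *cpo* encodes an RNA-binding protein of the nervous system and the endocrine ring gland, and natural variation at the gene is linked to diapause in *D. melanogaster*. Insulin-like peptides bind the receptor tyrosine kinase encoded by *InR*, the activated receptor recruits the lipid kinase whose catalytic subunit is encoded by *Pi3K92E*, and the lipid it makes activates Akt, which keeps the transcription factor FOXO out of the nucleus. In *D. melanogaster* insulin signalling promotes egg maturation, and *Pi3K92E* is one of the genes through which strains differ in diapause.

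The 4 probes are printed in full because the 2 probes of *cpo* gave different results and the readings of *InR* and *Pi3K92E* each rest on a single spot per array. They are given from the 5′ end as the scanner files list them, in lower case, and capitals mark the triplets TAA, TAG and TGA in any of the 3 forward frames.
gb_Dmontana_cpo_2_L: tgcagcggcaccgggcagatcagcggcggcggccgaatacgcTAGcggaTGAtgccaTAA
gb_Dmontana_cDNA_cpo_2F2R: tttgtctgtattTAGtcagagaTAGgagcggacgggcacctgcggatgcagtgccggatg
Dmontana_InR_2F2R: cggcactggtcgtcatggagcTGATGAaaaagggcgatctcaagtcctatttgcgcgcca
D.montana_Pi3K92E_1FR: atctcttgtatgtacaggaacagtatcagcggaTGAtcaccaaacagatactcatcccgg

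Each probe is 60 bases long, was spotted once and is called below by the end of its name. Probe cpo_2_L has 65.0% G and C, a content that none of the other probes exceeds (median of the 208 probes 45.0%, lowest 31.7%). The content is 55.0% in cpo_2F2R and in InR_2F2R, and 14 of the 208 probes exceed it, while that of Pi3K92E_1FR lies at the median. Each *cpo* probe has 1 forward frame free of the marked triplets, and the other probes have 2 each, as 95.7% of all probes have at least 1. The longest run that any of the 4 shares with another experimental probe is 10 bases. The symbols of all 3 genes were found in the RefSeq gene table of *D. montana*, where each is a protein-coding gene, but no genome was used and the probes were placed on no transcript, so their exons and strand were not tested. The 2 probes of *cpo* are different stretches, and which transcripts of the gene each one reads is not known here. The signal of every probe, that of cpo_2_L included, is assigned to its gene by the probe name alone.

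Probe cpo_2_L gave a strong signal on every array, and the order was young over diapausing over reproducing. Its mean intensity, in scanner units and before any scaling, was 1914, 2157 and 2567 in diapausing females (replicates 27, 42 and 43), 1019, 990 and 706.5 in reproducing females (replicates 22, 23 and 40) and 3833, 6807 and 5115 in young females (replicates 12, 16 and 17). No value of one group reached into the range of another. These readings were not on 1 scale, as the spike-in control spots differed between arrays. In the same order of replicates, their median intensity was 1502, 2503 and 2571 on diapausing, 922, 1594 and 1155 on reproducing and 923, 684 and 878 on young arrays. On the same arrays the negative control spots averaged between 54.1 and 68.1, and the probe was well above background by the marks of the scanner software on 9 of 9 arrays.

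**Figure D1:**
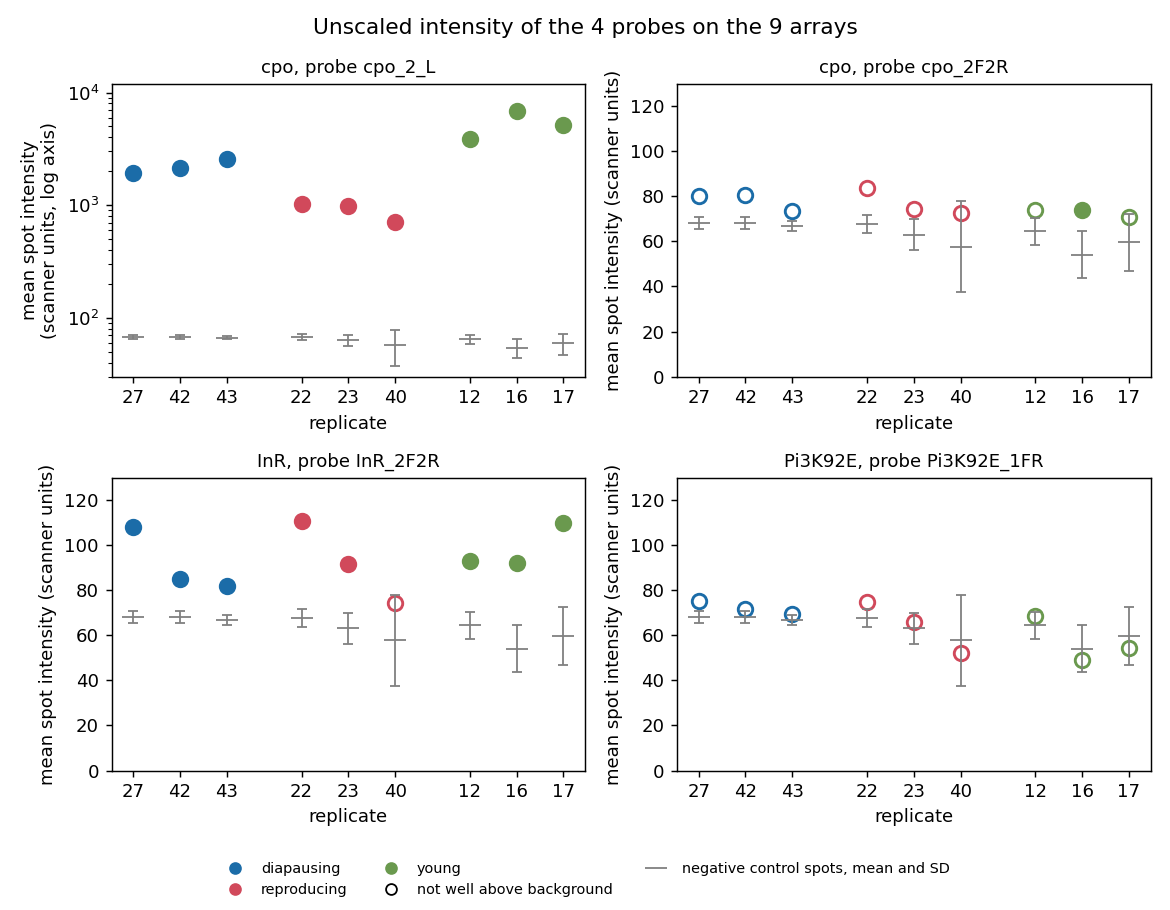
Unscaled mean spot intensity (scanner units) of the 4 probes on each array, by replicate within the diapausing, reproducing and young groups; open circles are spots not well above background, and grey marks give the mean and SD of the negative control spots of the same array. The intensity axis is logarithmic for cpo_2_L only: its values lie between 706.5 and 6807, whereas the other 3 probes stay between 48.9 and 110.6.

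After variance stabilizing normalization (VSN), which fits an offset and a scale to each array, the log2 intensity of cpo_2_L averaged 10.99 ± 0.23 in diapausing females, 9.62 ± 0.39 in reproducing females and 12.50 ± 0.47 in young females (SD, n = 3 each). The 208 probes were compared with limma on all 9 arrays, their p-values were adjusted by Benjamini-Hochberg, and a probe was called where the adjusted p was under 0.05 and the groups differed by more than 2-fold. Reproducing females were 7.39-fold lower than young females (log2 fold change -2.89, SE 0.33, adjusted p = 0.00287), and this was called, as 4.81% of the probes were. Diapausing females were 2.85-fold lower than young females (log2 fold change -1.51, SE 0.33, adjusted p = 0.0441), and this was called too, as 3.37% of the probes were, but with slide as a block the call was lost (adjusted p = 0.128). Diapausing females had a 2.60-fold higher mean than reproducing females (log2 fold change 1.38, SE 0.33, 95% interval 0.63 to 2.13), but this was not called (limma, adjusted p = 0.136), and 1.44% of the probes were called there. The groups did not overlap in any of the 3 comparisons, which was so for 12.5% of the probes between diapausing and reproducing, 18.8% between diapausing and young and 28.8% between reproducing and young females.

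Each of the 3 slides carried 1 array of each group, so the differences can be read within slides. Diapausing minus reproducing was 1.35, 0.92 and 1.86 on slides 1, 2 and 3 (log2, VSN). Diapausing minus young was -0.83, -2.22 and -1.48, and reproducing minus young was -2.18, -3.14 and -3.34. The direction was thus the same on all 3 slides in each comparison. On the VSN scale the size of the difference between diapausing and young females varied most. With 75th percentile scaling, reproducing minus young varied most instead (-2.43, -2.87 and -1.61). With slide as a block in the limma fit of the VSN values, the adjusted p-values in these 3 comparisons were 0.237, 0.128 and 0.0194. Only reproducing against young females was called. On the unscaled intensities the ratio of diapausing to reproducing was 1.88, 2.18 and 3.63 on the 3 slides, that of diapausing to young 0.499, 0.317 and 0.502, and that of reproducing to young 0.266, 0.145 and 0.138. These unscaled ratios also carry the differences between arrays that the spike-in spots showed.

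**Figure D2:**
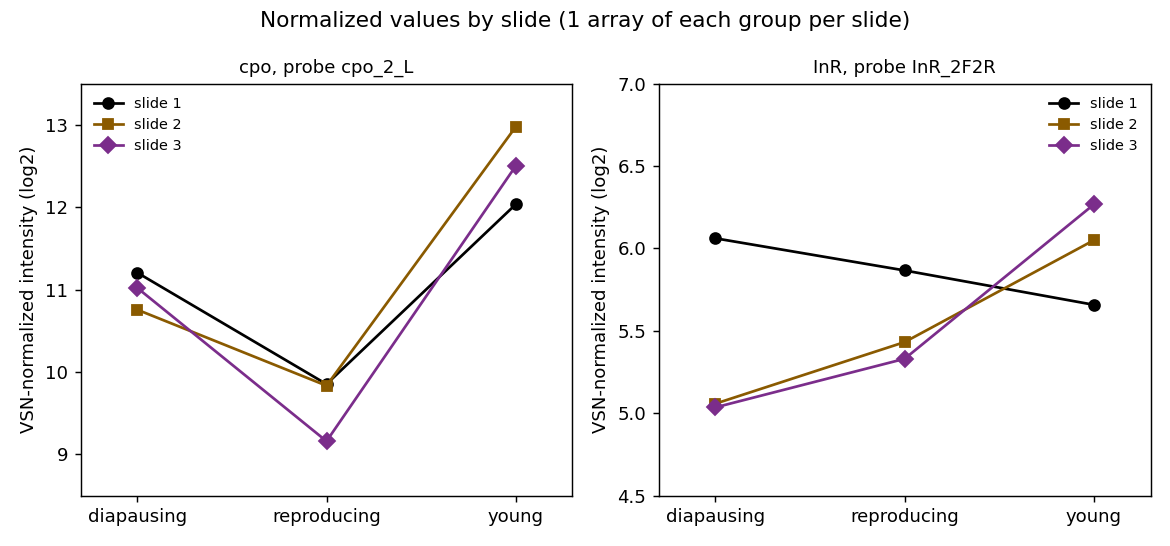
VSN-normalized log2 intensity of cpo_2_L and of InR_2F2R in diapausing, reproducing and young females, 1 line per slide. For cpo_2_L the reproducing array is the lowest and the young array the highest on each of the 3 slides, whereas the lines of InR_2F2R cross.

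The same order was seen when cpo_2_L was set against housekeeping genes on its own array, which needs no scaling between arrays. The log2 ratio of its processed signal to that of *Ef1α48D*, a translation elongation factor, was 0.94, 1.76 and 2.02 in diapausing females, 0.40, 0.17 and -0.86 in reproducing females and 2.38, 3.50 and 2.98 in young females. The groups did not overlap, and the mean differences were 1.67 (diapausing minus reproducing), -1.38 (diapausing minus young) and -3.05 (reproducing minus young). Against *eIF-4a*, an RNA helicase of translation initiation, the mean differences were 1.65, -1.24 and -2.89, again without overlap. Such a ratio shows unequal change of 2 features and does not say which of them changed. The share of all probes without overlap on these ratios was not computed, so the lack of overlap has no background to be read against.

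How firmly cpo_2_L was called depended on the comparison and on the normalization. The difference between reproducing and young females was called in 13 of 13 processing alternatives, with log2 fold changes between -2.89 and -2.04, and in 9 of 9 fits that left out 1 array (-3.12 to -2.63). That between diapausing and young females was called in 2 of 13 alternatives (adjusted p between 0.0435 and 0.799) and in 3 of 9 fits with an array left out (0.0224 to 0.232). With each array scaled to its 75th percentile, its log2 fold change was -0.48, and the arrays of slide 3 differed by -0.002 only. That between diapausing and reproducing females was called in 4 of 13 alternatives (adjusted p between 0.0141 and 0.281, log2 fold change between 1.17 and 1.82) and in 0 of 9 fits with an array left out (lowest 1.1 without reproducing replicate 40, highest 1.56). The sign was the same in each of these fits.

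**Figure D3:**
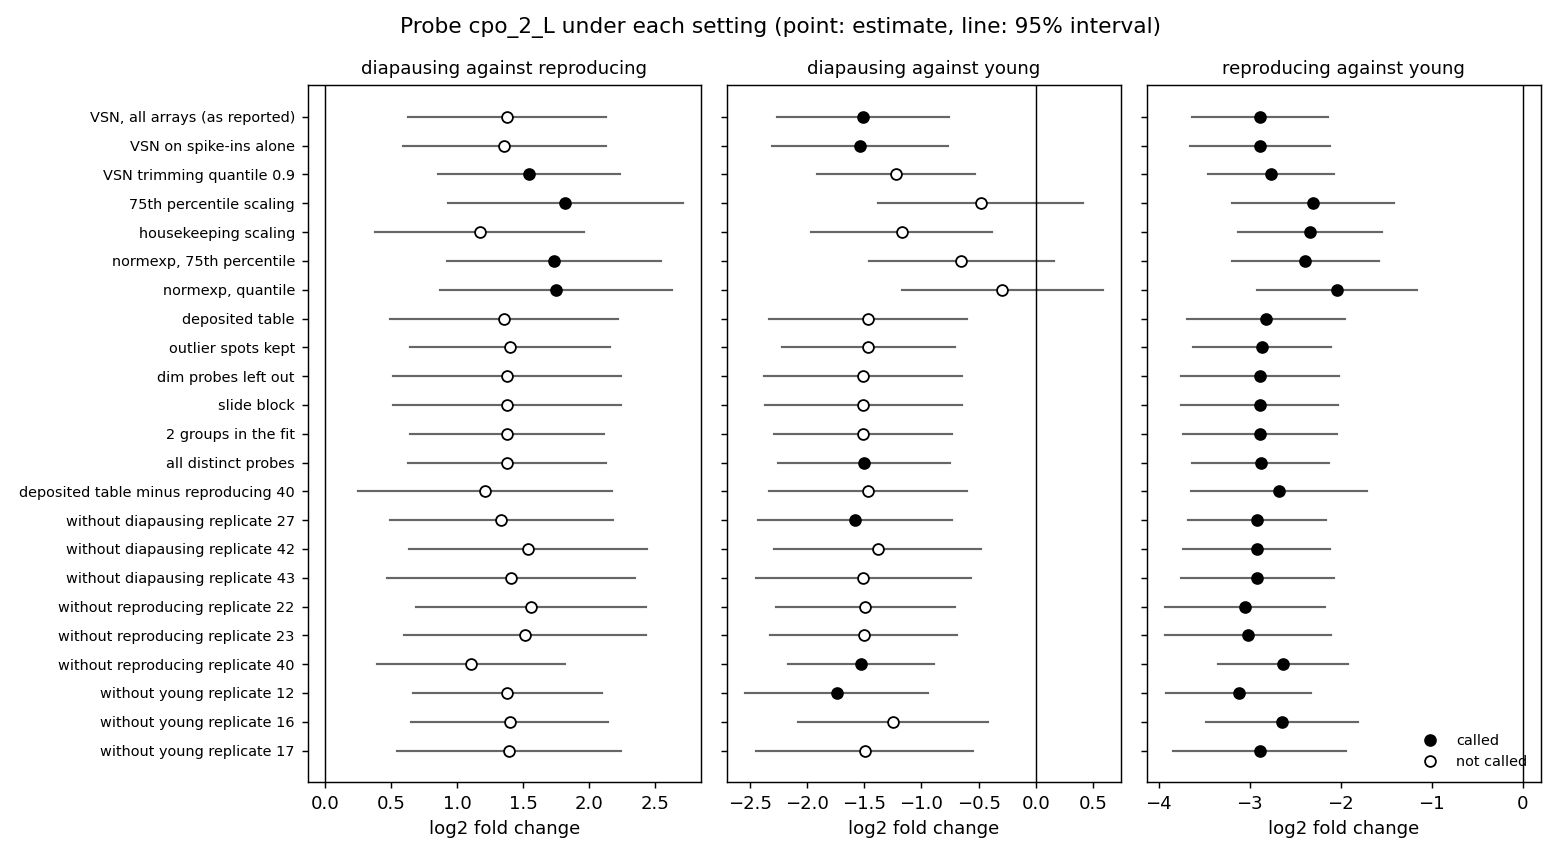
Log2 fold change of probe cpo_2_L with its 95% interval (horizontal axis) under each processing alternative and with each array left out (rows), for the 3 comparisons; filled points passed the adjusted p and the fold threshold. The points of reproducing against young females are all filled, between -3.12 and -2.04, while those of diapausing against young females reach -0.29 with normexp and quantile normalization.

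The second *cpo* probe lay at the level of the background. Probe cpo_2F2R read 80.3, 80.6 and 73.5 scanner units in diapausing females, 83.8, 74.5 and 72.7 in reproducing females and 74.0, 74.1 and 71.0 in young females. It passed the mark for well above background on a single array (young replicate 16), although the weaker mark for a signal significantly over background was set on 9 of 9. The groups overlapped in all 3 comparisons. No fold is read as a result, since no group was above background on more than 1 array. The fitted log2 fold changes of -0.16, -0.27 and -0.11 (diapausing against reproducing, diapausing against young, reproducing against young) had adjusted p-values between 0.729 and 0.843. Over the 9 arrays the VSN values of the 2 *cpo* probes had a Pearson correlation of 0.24. A mean over both probes therefore holds 1 measured and 1 dim reading, and its log2 fold changes were 0.61, -0.89 and -1.50 in the same 3 comparisons, against 1.38, -1.51 and -2.89 for cpo_2_L alone. Of these gene means only reproducing against young females was called (adjusted p = 0.00936, limma over 108 genes, 8.33% of them called, against 0.926% in the first and 1.85% in the second comparison).

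Among the gene means after VSN, *cpo* was the single gene of 108 with every young array above every diapausing array and every diapausing array above every reproducing array (0.926% of the genes). The order counted is the one that cpo_2_L itself shows, and no other order of the groups was counted. The count is therefore a description and does not set *cpo* apart from the other genes. Among the 208 probes after VSN the order held for 2, cpo_2_L and a probe of *norpA*, the phospholipase C of phototransduction. This depended on the normalization. Diapausing and young arrays overlapped for cpo_2_L with 75th percentile scaling, with normexp and that scaling, and with normexp and quantile normalization. The order was not counted over all genes under those settings. The order of the group means alone was young, diapausing, reproducing for 39 genes. The 5 genes whose VSN values were most correlated with the *cpo* mean over the 9 arrays were *slo*, a calcium-activated potassium channel (Pearson r = 0.95), *Ddc*, the dopa decarboxylase of dopamine synthesis (0.94), *stv*, a co-chaperone (0.92), *shakB*, a gap junction protein (0.89), and *Clk*, a transcription factor of the circadian clock (0.88). The median over the 84 genes ranked was 0.36, and all genes share the arrays, their normalization and the 3 group means, so that these values are a description.

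In whole bodies, fewer cells of a type and less RNA per cell cannot be told apart. The levels of genes bound to particular tissues are therefore given beside those of *cpo*. The neuronal list is no outside comparison, since *cpo* itself acts in the nervous system. That list also holds *slo* and *shakB*, named above for their correlation with *cpo*. Of 13 photoreceptor genes, all measured above background on some array, 11 had a higher mean in diapausing than in reproducing females, and 13 had a lower mean in both diapausing and reproducing than in young females, with median log2 fold changes of 0.57, -0.54 and -1.18, of which the first turned to -0.23 in the deposited table and the second to 0.07 with 75th percentile scaling and 0.21 with normexp and that scaling. Of all 108 genes, 48.1% were higher in diapausing than in reproducing females, while 77.8% were lower in diapausing and 63.9% in reproducing than in young females. Relative to the median of all genes, the photoreceptor medians were 0.59, -0.15 and -1.04 with VSN, 0.82, -0.25 and -1.01 with 75th percentile scaling and 0.26, -0.26 and -0.45 in the deposited table. Limma called 0 of the 13 in each comparison, against 0.926%, 1.85% and 8.33% of all genes, and 1, 0 and 3 of them had an unadjusted p under 0.05, against 8.33%, 10.2% and 23.1% of all genes. Their mean VSN level ranged from 7.99 to 9.80 on diapausing, from 6.56 to 8.98 on reproducing and from 9.27 to 9.76 on young arrays. Of 9 neuronal genes, 7 of them above background on some array, 8 had a lower mean in diapausing than in young females (1 called) and 6 in reproducing than in young females (2 called), where 77.8% and 63.9% of all genes were lower, and the median between diapausing and reproducing females was -0.23, which turned to 0.15 with 75th percentile scaling and 0.19 with normexp and that scaling. The normexp setting also turned the neuronal medians against young females, to 0.26 for diapausing and 0.06 for reproducing females, which were -0.11 and -0.09 relative to the median of all genes. Their mean level ranged from 5.23 to 5.38 on diapausing, from 5.12 to 5.73 on reproducing and from 5.70 to 6.32 on young arrays. Over all 108 genes the medians were -0.03, -0.39 and -0.14. For 9 genes with maternal transcripts, which ovaries supply, the medians were -0.70, -0.44 and 0.09. The second turned to 0.38 with 75th percentile scaling, 0.37 with normexp and that scaling and 0.14 with normexp and quantile normalization. Of these 9, 8 had a lower mean in diapausing than in reproducing females, as had 51.9% of all genes. Against young females, 8 were lower in diapausing and 3 in reproducing females. Limma called 0 of the 9 in each comparison, and 2, 0 and 1 had an unadjusted p under 0.05 (shares of all genes above). Their mean level ranged from 6.36 to 7.91 on diapausing, from 7.02 to 8.26 on reproducing and from 7.08 to 7.55 on young arrays. The part of these lists in the result for *cpo* was not tested.

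*InR* was measured just above background, and no difference between groups was called. Probe InR_2F2R read 108.1, 85.0 and 81.9 scanner units in diapausing females, 110.6, 91.5 and 74.3 in reproducing females and 93.2, 92.0 and 109.9 in young females. It was well above background on all arrays but that of reproducing replicate 40, whose negative control spots had an SD of 20.4 (2.20 to 12.7 on the other arrays). The highest and lowest readings of diapausing and reproducing females lay on slides 1 and 3, and all 3 groups overlapped.

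The VSN log2 values of InR_2F2R were 6.06, 5.06 and 5.04 in diapausing, 5.87, 5.43 and 5.33 in reproducing and 5.66, 6.05 and 6.27 in young females. The log2 fold change was -0.16 between diapausing and reproducing females, with a 95% interval of -0.96 to 0.64 (adjusted p = 0.842) that spans changes in both directions. It was -0.61 between diapausing and young females (interval -1.40 to 0.19, adjusted p = 0.522) and -0.45 between reproducing and young females (interval -1.25 to 0.35, adjusted p = 0.535). Within slides, diapausing minus young was 0.40, -0.99 and -1.23, and reproducing minus young was 0.21, -0.62 and -0.94, so slide 1 ran opposite to slides 2 and 3 in both. In the order of group means the neighbours did not differ beyond their spread.

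Set against *Ef1α48D* on the same array, InR_2F2R was lower in diapausing than in young females on all arrays, with log2 ratios of -4.56, -5.16 and -5.18 in diapausing and -4.48, -3.98 and -3.25 in young females, a mean difference of -1.06. The nearest values of the groups, -4.56 and -4.48, almost met. *Ef1α48D* itself varied among diapausing females (VSN log2 10.18, 8.84 and 8.87), and for qRT-PCR the paper used *eIF-4a* as the reference in comparisons with young females. Against *eIF-4a* the values of diapausing and young females overlapped. Reproducing females, at -10.72, -11.11 and -11.95, lay below young females, at -10.16, -10.28 and -9.24. The value of -11.95 is that of reproducing replicate 40, where the probe was not well above background. For these ratios too, the share of all probes without overlap was not computed. The gene whose values were most correlated with *InR* was *Hsf*, the heat shock transcription factor (Pearson r = 0.91 over 9 arrays), followed by *CdsA* (0.89), *ninaC* (0.87), *PEK* (0.87) and *Slob* (0.86). The median correlation over the ranked genes was 0.66 for *InR*, well above the 0.36 for *cpo*, which leaves little to set these 5 apart.

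*Pi3K92E* was not measured above background on any array. Probe Pi3K92E_1FR read 75.1, 71.7 and 69.3 scanner units in diapausing females, 74.8, 66.1 and 52.2 in reproducing females and 68.5, 48.9 and 54.5 in young females, values close to those of the negative control spots of the same arrays. It was well above background on 0 of 9 arrays, and the weaker mark was set on 2 diapausing, 1 reproducing and 0 young arrays. No fold change is read as a result, since all groups were below background, and fitted values are given only to show how they move with the processing. The fit called none of the 3 comparisons (limma, adjusted p between 0.528 and 0.842), which says nothing about the RNA at this signal. As for the *cpo* and *InR* probes, the strand of this probe relative to its transcript was not tested. Whether it can detect the RNA of the gene is therefore not known here. On the VSN scale the groups overlapped in all 3 comparisons. The unscaled readings of diapausing females lay above those of young females, as did the means of the negative control spots, at 66.7 to 68.1 on diapausing and 54.1 to 64.4 on young arrays. The correlation of its values over the 9 arrays was highest with *Mpk2*, a p38 kinase (Pearson r = 0.83), and 0.55 or less with the others, against a median of -0.19. Between the 3 genes, the correlations were 0.60 for *cpo* with *InR*, -0.60 for *cpo* with *Pi3K92E* and -0.47 for *InR* with *Pi3K92E*, the last 2 with a probe at background.

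The other genes placed in the diapause category of the array gave 0 calls in any of the 3 comparisons (limma), where 0.926%, 1.85% and 8.33% of all genes were called. Of these 4 genes, 0, 1 and 1 had an unadjusted limma p under 0.05, against 8.33%, 10.2% and 23.1% of all genes. *cpo* was thus the 1 called gene of the 7 in the category (reproducing against young females). So few genes do not set *cpo* apart from its category by these counts. *Dat*, which acetylates dopamine and serotonin, had VSN log2 values of 11.34, 11.17 and 11.14 in diapausing females, 11.73, 11.78 and 11.37 in reproducing females and 11.74, 12.43 and 12.15 in young females. Its diapausing arrays lay below those of both other groups, with log2 fold changes of -0.41 against reproducing (adjusted p = 0.651) and -0.89 against young females (adjusted p = 0.103), where 10.2% and 17.6% of the genes did not overlap. With 75th percentile scaling the values were 0.20 and 0.11, or -0.06 and -0.21 relative to the median of all genes, against -0.38 and -0.50 relative to it with VSN. Normexp with quantile normalization turned the comparison with young females to 0.24, or 0.23 relative to that median. *CoI*, the mitochondrial cytochrome c oxidase subunit, was 15.22, 15.07 and 14.02 in reproducing and 16.06, 16.25 and 16.12 in young females, a log2 fold change of -1.38 (adjusted p = 0.0932), and 29.6% of the genes did not overlap there. Its direction was the same with each scaling, between -1.38 and -0.61.

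The remaining genes of the category had wide intervals. *Adh*, the alcohol dehydrogenase, had a log2 fold change of 0.75 between diapausing and reproducing females with a 95% interval of -1.46 to 2.96, a sign that turned in the deposited table (-0.17), and its diapausing values alone ran over 13.24, 14.81 and 16.60. *CrebB17A*, a transcription factor that answers to cyclic AMP, was at -0.72, -0.44 and 0.27 in the 3 comparisons, and the second turned to 0.46 with 75th percentile scaling and 0.34 with normexp and that scaling. Of the genes on the array that act in insulin, Ras or GSK3 signalling, *Dsor1* (the MAP kinase kinase) was at -0.70, 0.17 and 0.87 and *sgg* (the kinase GSK3) at -0.14, -0.13 and 0.01, while *Nf1*, a Ras GTPase-activating protein, was above background on 0 of 9 arrays. None of them was called in any comparison, where 0.926%, 1.85% and 8.33% of all genes were called.

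**Figure D4:**
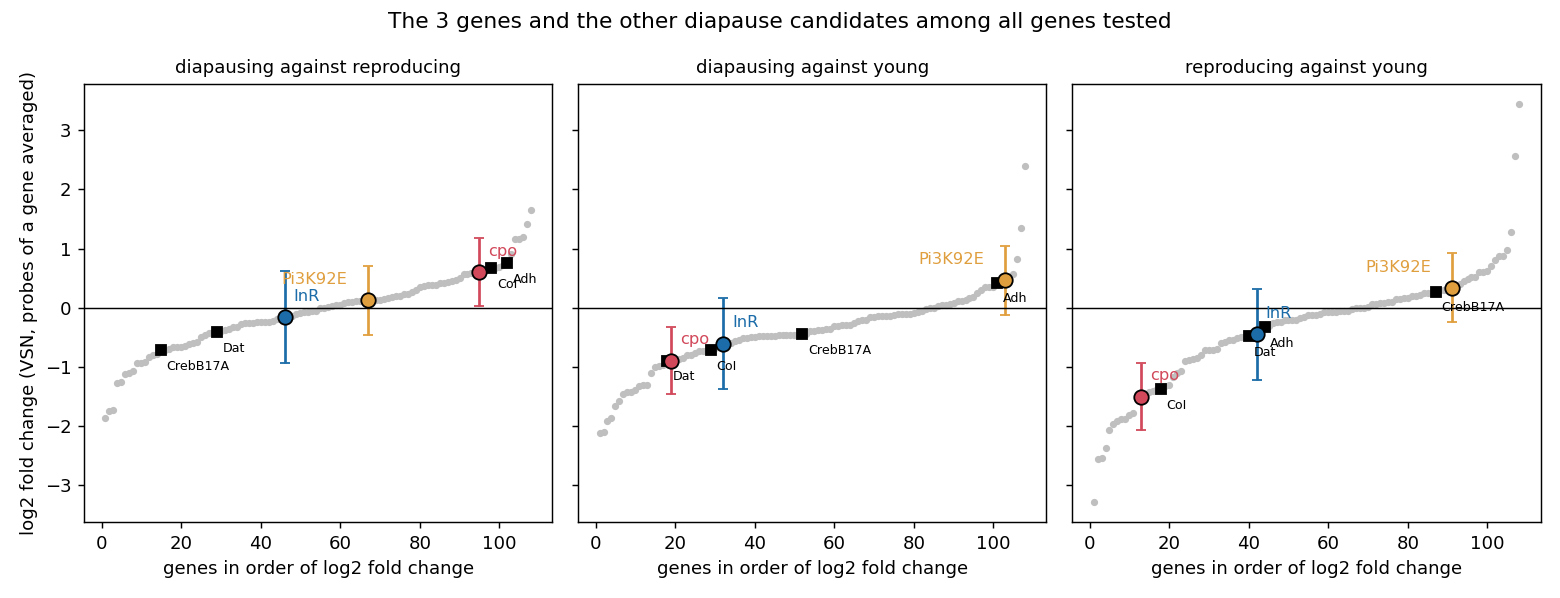
Log2 fold change (vertical axis) of the 108 genes in rising order for each comparison, after VSN and averaging of the probes of a gene; coloured points with 95% intervals are *cpo*, *InR* and *Pi3K92E*, black squares the other diapause candidates *Adh*, *CoI*, *CrebB17A* and *Dat*, grey points the other genes. The mean of *cpo* is at 0.61, -0.89 and -1.50, and the intervals of *InR* and *Pi3K92E* include 0 in all 3 panels.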

How the data were processed

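The authors deposited the scanner output of Agilent's Feature Extraction (version 9.5.1.1 in the file headers) for 9 one-colour arrays, which lists for every spot the mean intensity, the local background and the processed intensity after background subtraction, with no scaling between arrays. A deposited table of 197 processed intensities per array was used as an alternative only. Its column for reproducing replicate 40 followed the scanner values less closely (r = 0.916 across probes, 0.998 or more for the others), and its scale was not settled.

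From the mean intensities, spots marked as outliers were removed (0 of the spots described), duplicate spots were averaged, and VSN, rewritten in R 4.3.3 from its published model, was fitted on 197 experimental probes and 200 spike-in spots (trimming quantile 0.5, 5 slices, 7 rounds). Probes (208) and gene means (108) were tested with limma 3.58.1 over the 9 arrays with Benjamini-Hochberg adjustment. The genes named are the 3 genes, the other genes of the diapause category and of insulin, Ras and GSK3 signalling, the 5 most correlated genes of each, and 2 housekeeping genes. *norpA* was named after its values were seen. The members and lists were chosen with earlier results of these data known. The script was checked on simulated data. Precision is limited by the number of arrays (3 per group), and between 120 and 147 of 197 probes passed the mark for well above background on an array. The alternatives were other normalizations (VSN with a trimming quantile of 0.9 or on spike-ins alone, scaling to the 75th percentile or to housekeeping genes, normexp with an offset of 50, the deposited table), no removal of outlier spots, removal of dim probes, all 208 probes, the brightest probe per gene, a slide block, fits of the 2 groups compared, and each array left out. Python 3.11.15 with matplotlib 3.10.9 drew the figures.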

Additional observations from a re-analysis of the deposited data

How the results depend on the processing

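The deposited table without reproducing replicate 40, and the ratios to *Ef1α48D* and *eIF-4a*, were chosen after the data were seen. Over all genes the median log2 fold change was -0.03, -0.39 and -0.14 with VSN (diapausing against reproducing, diapausing against young, reproducing against young, the order kept below) and 0.27, 0.32 and 0.10 with scaling to the 75th percentile. Relative to these medians, *cpo* was at 0.64, -0.50 and -1.36 with VSN and at 1.07, -0.38 and -1.50 with that scaling. No paired analysis was possible because the replicate numbers differ between all groups, so the slides, which hold 1 array of each group, were used as the block instead.

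For the *cpo* gene mean, diapausing against reproducing females was called in 0 of 14 alternatives. Diapausing against young females was called with the brightest probe alone (-1.51, adjusted p = 0.0407). Reproducing against young females was no longer called with normexp and 75th percentile scaling (-1.14, adjusted p = 0.0534), in the deposited table without reproducing replicate 40 (-1.63, adjusted p = 0.0787), without young replicate 16 (-1.28, adjusted p = 0.0512) and without young replicate 17 (-1.55, adjusted p = 0.0516), while the range with an array left out was -1.71 to -1.28 (limma throughout).

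The near-background probes changed sign, never with a call. For *InR*, diapausing against reproducing females turned to 0.62 with 75th percentile scaling and 0.20 with normexp and 75th percentile scaling, and ranged from -0.42 to 0.051 with an array left out. Its other comparisons turned to 0.20 and 0.0026 with normexp and 75th percentile scaling. For *Pi3K92E*, diapausing against reproducing females turned to -0.38 with housekeeping scaling and -0.17 in the deposited table without reproducing replicate 40, and ranged from -0.053 to 0.24 with an array left out, and diapausing against young females turned to -0.0052 with housekeeping scaling. For cpo_2F2R, diapausing against reproducing females turned to 0.86 with 75th percentile scaling, 0.21 with housekeeping scaling, 0.22 with normexp and 75th percentile scaling, 0.40 in the deposited table and 0.13 in that table without reproducing replicate 40. Diapausing against young females turned to 0.36 and 0.32 with the 75th percentile scalings without and with normexp. Reproducing against young females turned to 0.10 with normexp and 75th percentile scaling and 0.015 with normexp and quantile normalization, and ranged from -0.29 to 0.083 with an array left out.

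Counts of genes called were 1, 2 and 9 with VSN as described. They were 0 and 1 in the first 2 comparisons with spike-ins alone, 5 in the second with a trimming quantile of 0.9, 10, 8 and 20 with 75th percentile scaling, 7 and 4 in the first 2 with housekeeping scaling, 5 in the first with normexp and 75th percentile scaling, 4 and 0 in the first 2 with normexp and quantile normalization, 6 in the second in the deposited table, 0 and 4 in the first and last in that table without reproducing replicate 40, 0 in the first with dim probes left out, 0, 0 and 4 with slide as a block, 0, 0 and 5 with only the 2 groups compared in the fit, and 2 and 5 in the first 2 with the brightest probe per gene. With an array left out they ranged over 0 to 6, 0 to 6 and 0 to 12. Counts of probes called were 3, 7 and 10. They were 5 in the first with a trimming quantile of 0.9, 12, 11 and 39 with 75th percentile scaling, 11 in the first with housekeeping scaling, 13 and 26 in the first and last with normexp and 75th percentile scaling, 12, 1 and 20 with normexp and quantile normalization, 1 and 4 in the first 2 in the deposited table, 5 in the last in that table without reproducing replicate 40, 2 and 6 in the last 2 with slide as a block, and 0 in the first with only the 2 groups compared. With an array left out they ranged over 1 to 15, 0 to 12 and 2 to 11. Where limma called 0 genes or probes, 6 to 21 genes or 12 to 16 probes had an unadjusted p under 0.05. The cause of these differences was not tested.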
